A study of Mus musculus with 4 samples.

Results

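The MS4A genes encode small proteins that cross the plasma membrane several times and keep both ends in the cytoplasm. Levels were described for 8 mouse members, chosen by name as Ms4a4a, Ms4a4b, Ms4a4c, Ms4a6b, Ms4a6c, Ms4a6d, Ms4a7 and Ms4a2, of 22180 genes with a single-symbol row in the deposited array table. The founding members of the family are CD20 of B cells (Ms4a1) and the beta chain of the high-affinity IgE receptor of mast cells (Ms4a2). MS4A proteins sit beside immune receptors and modulate their signalling, and several members are typical of macrophages, including those of tissue borders.

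RNA came from macrophages of the ear dermis of adult C57Bl/6 mice, untreated and with the genotype Cx3cr1+/gfp in all samples, so that GFP replaces 1 Cx3cr1 allele in both groups. The groups were CX3CR1bright and CX3CR1low cells, with 2 arrays each. A sample held cells sorted by FACS from the pooled skin of 3 to 6 mice, and the replicates of a subset came from 2 independent litters. Values are log2 levels from RMA, a method that corrects background, equalises the arrays and summarises the probes of a transcript cluster into 1 value. Levels of different genes come from different probes and were not ranked against each other; each was set against its own array's median (3.65 to 3.68) and 75th percentile (5.44 to 5.52).

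As a check of the labels, Cx3cr1, the gene behind the gate, stood at 8.42 and 8.44 on the CX3CR1bright arrays and at 3.63 and 3.60 on the CX3CR1low arrays. All 11 macrophage markers with a row, such as Csf1r and Adgre1, lay above the own 75th percentile on all 4 arrays. Markers of other cells were on the arrays too. All 4 Langerhans cell markers were higher without overlap on the CX3CR1bright arrays, with a median difference of 1.76. So were 6 of 8 conventional dendritic cell markers, with a median of 0.89 over the 8. Of all tested genes 18.9% were higher without overlap. In the test used below 0 of either list passed (limma, 3 and 5 at an unadjusted p under 0.05, against 18.8% of all tested genes in either direction). The summed log2 level was 29.5 and 32.5 on the CX3CR1bright arrays and 24.7 and 24.1 on the CX3CR1low arrays for the Langerhans cell list, and 51.7 and 51.3 on the CX3CR1bright arrays and 43.0 and 44.6 on the CX3CR1low arrays for the dendritic cell list. The summed log2 level of 11 keratinocyte markers was 65.3 and 82.6 on CX3CR1bright arrays 1 and 2, against 64.2 and 58.8 on CX3CR1low arrays 1 and 2. That of 10 fibroblast markers was 67.6 and 68.4 on the CX3CR1bright arrays and 59.8 and 59.1 on the CX3CR1low arrays. Their part in the results below was not tested, and in sorted pools fewer cells of a type and less RNA per cell cannot be told apart.

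Each of the 8 members had exactly 1 row, and 0 of these rows carried a second symbol, so that no row is annotated as shared by paralogs. Such an annotation does not show that every probe separates close paralogs. RefSeq promoters on GRCm38.p6 were matched by symbol for 7 members; Ms4a6d had none. The 250 bases before the annotated start are shown for Ms4a4a, which had the smallest p of the members, and for the paralog pairs Ms4a4b with Ms4a4c and Ms4a6b with Ms4a6c, to show what neighbouring paralogs have in common before their start. All 5 lie on the plus strand and are written 5′ to 3′. In the pairs, capitals mark runs of at least 12 bases that occur in both promoters of the pair. Ms4a4a, which shared no such run with any other member that had a promoter, is in lower case and lies at chr19:11375238-11375487. The others lie at chr19:11443308-11443557 (Ms4a4b), chr19:11407411-11407660 (Ms4a4c), chr19:11518309-11518558 (Ms4a6b) and chr19:11469118-11469367 (Ms4a6c).
Ms4a4a: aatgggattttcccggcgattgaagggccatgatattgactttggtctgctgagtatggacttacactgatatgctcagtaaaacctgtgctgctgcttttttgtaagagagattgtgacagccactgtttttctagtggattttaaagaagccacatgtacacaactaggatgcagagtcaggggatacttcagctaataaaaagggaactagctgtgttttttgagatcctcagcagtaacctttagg
Ms4a4b: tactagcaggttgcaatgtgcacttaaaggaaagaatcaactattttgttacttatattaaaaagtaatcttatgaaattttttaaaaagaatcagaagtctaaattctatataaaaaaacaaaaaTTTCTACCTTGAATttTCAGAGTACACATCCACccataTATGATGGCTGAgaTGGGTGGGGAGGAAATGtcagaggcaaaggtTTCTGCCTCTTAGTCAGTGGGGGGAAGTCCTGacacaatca
Ms4a4c: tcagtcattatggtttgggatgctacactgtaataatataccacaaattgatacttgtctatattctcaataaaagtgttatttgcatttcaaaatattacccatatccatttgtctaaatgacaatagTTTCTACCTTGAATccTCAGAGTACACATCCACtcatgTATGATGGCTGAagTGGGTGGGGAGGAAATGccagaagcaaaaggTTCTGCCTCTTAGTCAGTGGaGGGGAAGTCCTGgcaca
Ms4a6b: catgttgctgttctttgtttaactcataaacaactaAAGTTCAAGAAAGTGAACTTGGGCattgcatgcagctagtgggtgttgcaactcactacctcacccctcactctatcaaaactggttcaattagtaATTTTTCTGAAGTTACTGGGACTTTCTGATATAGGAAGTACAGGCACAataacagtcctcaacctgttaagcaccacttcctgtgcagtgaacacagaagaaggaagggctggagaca
Ms4a6c: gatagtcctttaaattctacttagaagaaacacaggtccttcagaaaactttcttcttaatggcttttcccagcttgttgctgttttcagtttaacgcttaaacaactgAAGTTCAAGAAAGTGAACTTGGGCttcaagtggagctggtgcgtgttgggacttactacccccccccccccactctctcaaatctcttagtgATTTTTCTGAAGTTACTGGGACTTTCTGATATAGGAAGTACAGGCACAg

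The Ms4a4b and Ms4a4c promoters shared 92 of 250 bases in such runs, close to the start of both genes. Ms4a6b and Ms4a6c shared 72 of 250 bases. The other 19 of 21 member pairs shared no run of that length, with only the first listed start of Ms4a7 compared. In a global alignment the Ms4a4b and Ms4a4c promoters were 74.0% identical and those of Ms4a6b and Ms4a6c 59.6%, against a median of 52.4% over 27 pairs of promoters, a second start of Ms4a7 included. The capital run around GAGGAA, the core of the site bound by the myeloid factor PU.1, starts its GAGGAA 64 bases before the start of Ms4a4b and 61 before that of Ms4a4c. Searched on both strands, this motif was found in 23.3% of 32851 RefSeq promoters of the same length and in no other member's window. A MAF half-site, TGCTGAC, had 0 matches in the members' windows and was found in 3.81% of all promoters on either strand, so that no matches of different motifs overlapped in the members.

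Ms4a4a, Ms4a6b and Ms4a6d were lower on both CX3CR1bright arrays than on both CX3CR1low arrays, though no difference passed the test, and the levels of Ms4a7, Ms4a6c and Ms4a2 overlapped. Ms4a4c stood apart on a single CX3CR1bright array, and Ms4a4b lay below the array median on all 4. In a limma fit across 13133 genes, 0 of the 7 tested members passed an adjusted p of 0.05 (Benjamini-Hochberg over all genes). The share of all tested genes that passed was 0.137%. An unadjusted p under 0.05 in this fit was found for 3 members, all lower. Of all 13133 tested genes, 1544 were lower and 923 higher at that level, or 18.8% in either direction. Groups did not overlap for 3 of 7 members, all lower in CX3CR1bright cells, where 31.5% of all tested genes were lower without overlap and 18.9% higher. The difference was above 0 for 42.5% of all tested genes. These shares are the background for the counts given for each gene list below. The filter, at least 2 arrays above the array median, was not set by group, and Ms4a4b did not pass it.

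**Figure D1:**
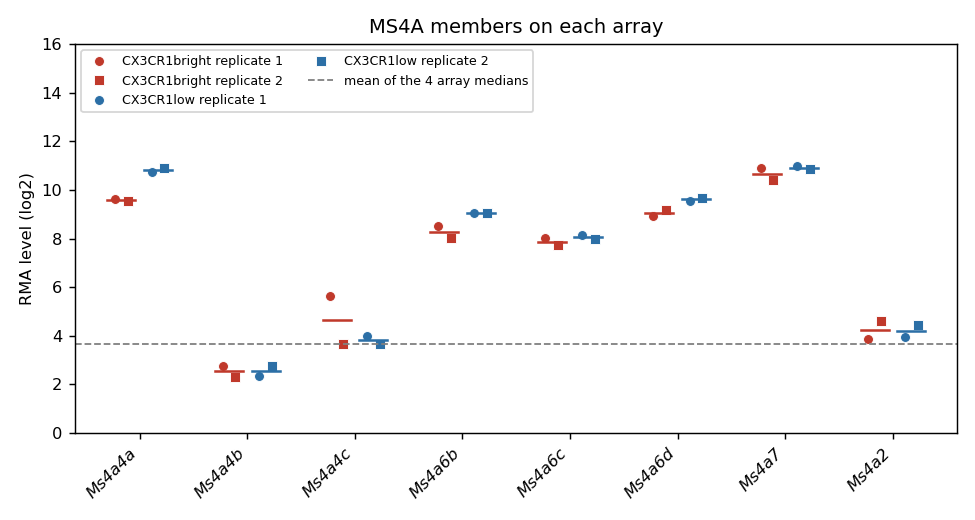
RMA level (log2, y axis) of the 8 MS4A members (x axis) on each array, with CX3CR1bright in red left of CX3CR1low in blue, circles for replicate 1 and squares for replicate 2; short lines are group means (n = 2) and the dashed line is the mean of the 4 array medians. Ms4a4a, Ms4a6b and Ms4a6d are lower on both CX3CR1bright arrays than on both CX3CR1low arrays, Ms4a4c is high on CX3CR1bright replicate 1, at 5.64, and Ms4a4b lies below the line on every array.

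Of the members typical of macrophages, Ms4a4a differed most. Ms4a4a (transcript cluster 17357640) encodes a protein that associates in mouse macrophages with the beta-glucan receptor dectin-1. Its levels were 9.62 and 9.55 on the CX3CR1bright arrays and 10.73 and 10.89 on the CX3CR1low arrays. Both CX3CR1bright arrays were more than 1 log2 unit below both CX3CR1low arrays, and the arrays of a subset lay 0.075 (CX3CR1bright) and 0.16 (CX3CR1low) apart, against medians over all tested genes of 0.28 and 0.22. The difference, CX3CR1bright minus CX3CR1low, was -1.23 ± 0.19 on the log2 scale (limma, SE, n = 2 per group, 95% interval -1.70 to -0.76), or 2.34-fold lower, with an adjusted p of 0.0845. By p it ranked 150 of 13133 genes, and 1.44% of tested genes had a difference as low or lower. The adjusted p passed when the fit allowed the variance to follow intensity (0.0155) and when it took only the 7327 genes with at least 2 arrays above the 75th percentile (0.0272), and over all alternatives it ran from 0.0155 to 0.490.

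Ms4a7 (cluster 17362953) is a macrophage gene that separates the macrophages of the brain's borders from microglia in the mouse. It stood at 10.90 and 10.41 on the CX3CR1bright arrays and at 10.97 and 10.86 on the CX3CR1low arrays. CX3CR1bright replicate 1 lay between the CX3CR1low arrays, so the groups overlapped, and only CX3CR1bright replicate 2 was lower. The difference was -0.26 ± 0.23 (limma, SE, n = 2 per group, 95% interval -0.86 to 0.33, adjusted p = 0.608), and it was -0.50 without CX3CR1bright replicate 1 and -0.019 without CX3CR1bright replicate 2.

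Ms4a6d (cluster 17362973) encodes a macrophage protein described in the mouse as a partner of the complement receptor VSIG4 in restraining inflammasome activity. Its levels were 8.91 and 9.18 on the CX3CR1bright arrays and 9.55 and 9.68 on the CX3CR1low arrays. Both CX3CR1bright arrays were lower, by at least the spread within either subset. The difference was -0.57 ± 0.20 (limma, SE, n = 2 per group, 95% interval -1.08 to -0.066), or 1.49-fold lower, with an adjusted p of 0.223.

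Ms4a6b and Ms4a6c are near neighbours whose promoters share the blocks shown above. Ms4a6b (cluster 17357688), also described in mouse T cells and present here with other macrophage transcripts, stood at 8.52 and 8.02 on the CX3CR1bright arrays and at 9.05 and 9.03 on the CX3CR1low arrays. The CX3CR1low arrays agreed to 0.021, the CX3CR1bright arrays lay 0.50 apart, and both were lower. The difference was -0.78 ± 0.24 (limma, SE, n = 2 per group, 95% interval -1.37 to -0.18), or 1.71-fold lower, with an adjusted p of 0.186. Ms4a6c (cluster 17357671), a gene of mouse myeloid cells, stood at 8.02 and 7.72 on the CX3CR1bright arrays and at 8.13 and 7.97 on the CX3CR1low arrays. Its groups overlapped, with a difference of -0.18 ± 0.21 (limma, SE, n = 2 per group, 95% interval -0.71 to 0.34, adjusted p = 0.690). It was -0.33 without CX3CR1bright replicate 1 and -0.035 without CX3CR1bright replicate 2. Whether the paralogs' differences are unequal was not tested.

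**Figure D2:**
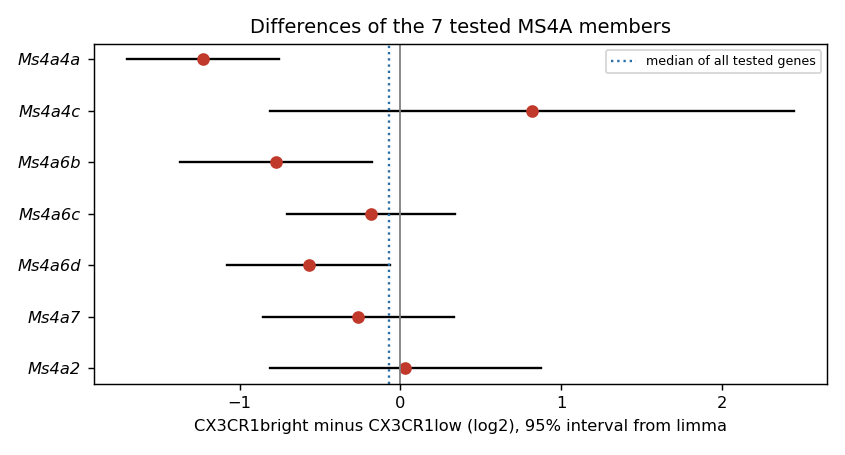
Difference of each of the 7 tested members, CX3CR1bright minus CX3CR1low on the log2 scale (x axis), as a point with its 95% interval from limma (n = 2 arrays per group); the dotted line is the median of all tested genes, -0.070. The intervals of Ms4a4a, Ms4a6b and Ms4a6d lie below 0 and those of Ms4a4c, Ms4a6c, Ms4a7 and Ms4a2 cross it.

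These 5 members, Ms4a4a, Ms4a6b, Ms4a6c, Ms4a6d and Ms4a7, lay above the own 75th percentile on all 4 arrays, and all 5 had a negative difference. Negative differences were common at such levels. Of 6141 tested genes above the 75th percentile on all 4 arrays, 64.5% were lower in CX3CR1bright cells and 39.6% were lower without overlap, and their median difference was -0.12. A difference as low as that of Ms4a4a was found for 1.53% of them. Over the 7 tested members the median was -0.26, with 2 positive and 5 negative, against -0.070 over all 13133 tested genes, of which 42.5% were positive. After quantile normalization or cyclic loess the median of all genes was -0.011 or 0.017 and the 5 members stayed negative, with Ms4a4a at -1.12 and -1.11. The smaller differences came closer to 0, with Ms4a6c at -0.062 and -0.043 and Ms4a7 at -0.14 and -0.15.

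Ms4a4b and Ms4a4c are close paralogs, of which Ms4a4b is known from mouse T cells, where it restrains proliferation, and Ms4a4c from myeloid and lymphoid cells. Ms4a4b (cluster 17357659) stood at 2.74 and 2.32 on the CX3CR1bright arrays and at 2.36 and 2.75 on the CX3CR1low arrays. All 4 levels lay below the array median and can be background, and the gene did not pass the filter; with no filter its difference was -0.024 ± 0.25 (limma, SE, n = 2 per group, adjusted p = 0.981). Ms4a4c (cluster 17357648) stood at 5.64 and 3.66 on the CX3CR1bright arrays and at 4.01 and 3.66 on the CX3CR1low arrays. Only CX3CR1bright replicate 1 lay above its array's 75th percentile, and the other 3 arrays were near their medians. The difference was 0.82 ± 0.64 (limma, SE, n = 2 per group, 95% interval -0.81 to 2.45, adjusted p = 0.555). It was -0.17 without CX3CR1bright replicate 1 and 1.81 without CX3CR1bright replicate 2, so that its direction rested on 1 array. A gap of at least 1 log2 unit between CX3CR1bright replicate 1 and the highest other array was found for 52 of 13133 tested genes, or 0.396%, and the gap of Ms4a4c was 1.64.

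Most T cell genes were highest on that array too. The summed log2 level of 11 T cell genes was 63.5 on CX3CR1bright replicate 1 and 56.7 on replicate 2, against 56.5 and 56.3 on the CX3CR1low arrays, and 9 of the 11 genes had their highest level on CX3CR1bright replicate 1. The share of all tested genes that were highest on this array was not computed, and the 9 include Il7r, nearly level on both CX3CR1bright arrays. None of the 11 lay below the median on every array. Cd3g, a chain of the T cell receptor complex, stood at 6.88 and 5.43 on the CX3CR1bright arrays and at 4.83 and 4.64 on the CX3CR1low arrays. Of 10 tested genes of the list 8 were positive and 0 passed (limma, 3 at an unadjusted p under 0.05), with a median of 0.29. Cd4, which macrophages can also express, went the other way, at 6.56 and 7.08 on the CX3CR1bright arrays and 8.67 and 8.84 on the CX3CR1low arrays. Il7r, the receptor for interleukin-7, stood at 9.81 on both CX3CR1bright arrays and at 8.32 and 8.19 on the CX3CR1low arrays. The part of T cell transcripts in the level of Ms4a4c was not tested.

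Interferon-induced genes went both ways. Of 13 tested interferon-induced genes 6 were positive, 7 negative and 0 passed (limma, 4 at an unadjusted p under 0.05), with a median of -0.029. Oas2, an antiviral enzyme, differed by -1.37 ± 0.28, Rsad2, the antiviral protein viperin, by -0.91 ± 0.22 and the chemokine gene Cxcl10 by 1.34 ± 0.28 (limma, SE, n = 2 per group). Summed over 15 interferon-induced genes, the log2 level was 92.0 and 84.7 on CX3CR1bright replicates 1 and 2, against 90.3 and 87.2 on CX3CR1low replicates 1 and 2. Of 8 tested monocyte genes 6 were positive and 0 passed (limma, 4 at an unadjusted p under 0.05, of which 3 were higher), with a median of 0.48. Ccr2, the receptor that guides monocytes into tissue, stood at 7.19 and 6.80 on the CX3CR1bright arrays and at 5.18 and 5.02 on the CX3CR1low arrays, a difference of 1.90 ± 0.22 (limma, SE, n = 2 per group, adjusted p = 0.0632). Ly6c2, which marks inflammatory monocytes, instead differed within both subsets and stood at 6.89 and 4.66 on CX3CR1bright replicates 1 and 2 and at 7.54 and 3.90 on CX3CR1low replicates 1 and 2. The part of interferon-induced or monocyte transcripts in the level of Ms4a4c was not tested.

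Ms4a2 (cluster 17362986), the IgE receptor beta chain, stood at 3.85 and 4.62 on the CX3CR1bright arrays and at 3.96 and 4.45 on the CX3CR1low arrays. The groups overlapped, and the level was above the array median and below the 75th percentile on all 4 arrays. The difference was 0.031 ± 0.33 (limma, SE, n = 2 per group, 95% interval -0.81 to 0.87, adjusted p = 0.970). Fcer1a, the alpha chain that binds IgE, lay below the own median on all arrays but CX3CR1low replicate 1. It was at 2.79 and 2.68 on the CX3CR1bright arrays and 3.81 and 2.98 on the CX3CR1low arrays. Fcer1g, the gamma chain that mast cells and macrophages share among their Fc receptors, stood at 11.02 and 10.77 on the CX3CR1bright arrays and at 11.13 and 10.97 on the CX3CR1low arrays.

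Most other mast cell transcripts were well above the array medians. Of 11 listed mast cell genes, 10 lay above the own median on all 4 arrays and 7 above the own 75th percentile. Mrgprb2, like Ms4a2, lay above the own median and below the own 75th percentile on all 4 arrays. It stood at 4.43 and 4.41 on the CX3CR1bright arrays and at 3.72 and 4.25 on the CX3CR1low arrays. Cpa3, the mast cell carboxypeptidase, stood at 9.84 and 9.78 on the CX3CR1bright arrays and at 10.03 and 10.04 on the CX3CR1low arrays. Kit, the stem cell factor receptor, stood at 6.66 and 7.12 on the CX3CR1bright arrays and at 6.79 and 7.18 on the CX3CR1low arrays. Of 10 tested genes 9 were negative and 0 passed (limma, 4 at an unadjusted p under 0.05), with a median of -0.41, and the summed log2 level of the 11 genes was 68.5 and 66.9 in CX3CR1bright samples, against 71.6 and 72.6 in CX3CR1low samples. The tryptase genes Tpsb2 and Tpsab1 differed by -0.85 ± 0.23 and -0.66 ± 0.22, and the chymase gene Cma1 by -0.59 ± 0.19 (limma, SE, n = 2 per group). The difference of Ms4a2 was near 0, and the part of mast cell transcripts in its level was not tested.

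**Figure D3:**
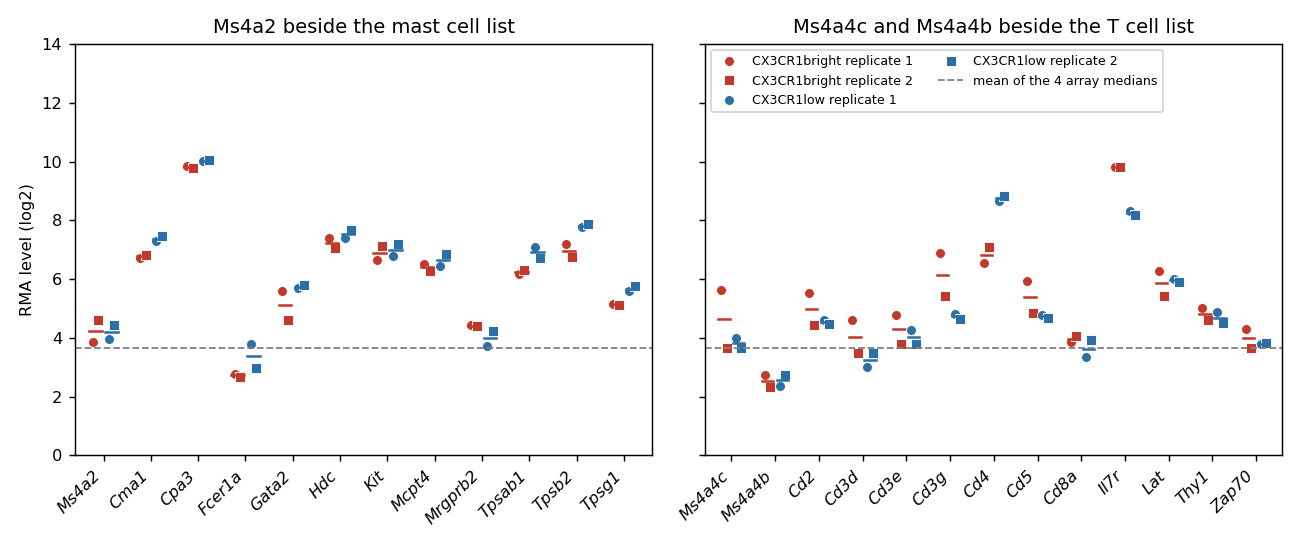
RMA level (log2, y axis) on each array, CX3CR1bright in red left of CX3CR1low in blue, of Ms4a2 with 11 mast cell genes (left panel) and of Ms4a4c and Ms4a4b with 11 T cell genes (right panel); circles are replicate 1, squares replicate 2, short lines group means (n = 2), the dashed line the mean of the 4 array medians. Ms4a2 lies a little above the dashed line and Fcer1a mostly below it, while 7 other mast cell genes lie above the 75th percentile on all arrays. Ms4a4c and Cd3g are highest on CX3CR1bright replicate 1.

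The MS4A genes form a cluster on mouse chromosome 19. The RefSeq table of GRCm38.p6, used here for the order of genes alone, holds 21 of them there with 1 other protein-coding gene, Gm8369, among them. The table of levels had a row for 20, and Ms4a12 was not analysed here. Of these 20, 6 lay above the own 75th percentile on all 4 arrays, and they fell in a stretch of 9 consecutive genes from Ms4a14 to Ms4a6d that also holds Ms4a4c, Ms4a4b and Ms4a4d. The ends of the stretch were set by these 6 genes. Among all 22180 genes with a single-symbol row, 6141 lay that high on all 4 arrays, a similar share. Of the 20, 9 lay below the median on all arrays, and the share of all genes that did was not computed. Among the 9 was Ms4a1, or CD20, with levels of 3.17 and 2.51 on the CX3CR1bright arrays and 2.49 and 2.68 on the CX3CR1low arrays.

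**Figure D4:**
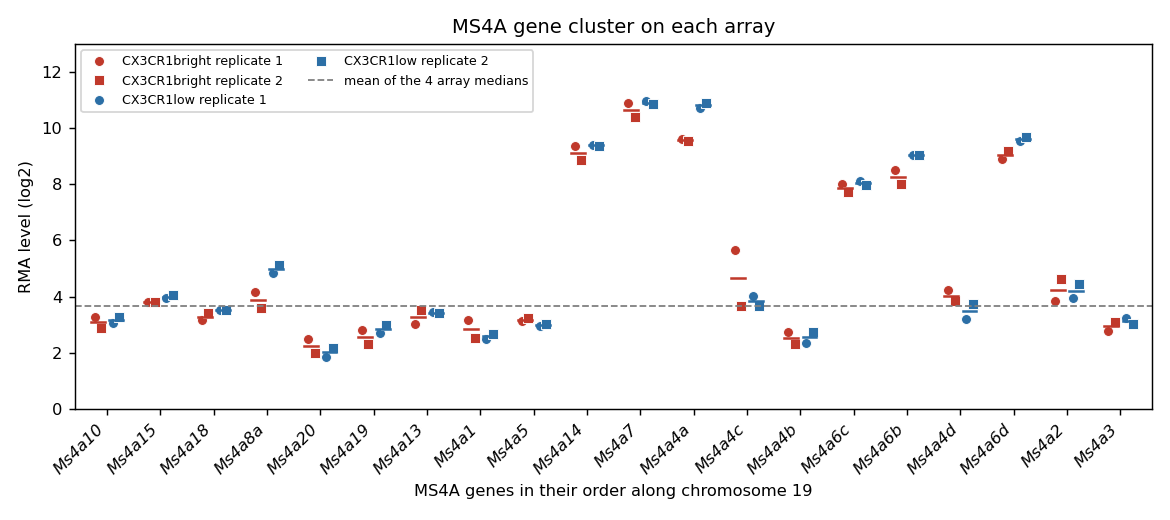
RMA level (log2, y axis) on each array of 20 MS4A genes in their order along chromosome 19 (x axis, not to scale), CX3CR1bright in red left of CX3CR1low in blue, circles for replicate 1 and squares for replicate 2, short lines for group means (n = 2) and the dashed line for the mean of the 4 array medians. The 6 genes above the 75th percentile on all arrays, Ms4a14, Ms4a7, Ms4a4a, Ms4a6c, Ms4a6b and Ms4a6d, fall within 9 consecutive genes.

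Beyond the 8 members, 6 of 14 further family genes with a row were tested, the related Tmem176a and Tmem176b included, and 0 passed (limma, 1 at an unadjusted p under 0.05); 3 were positive and 3 negative, with a median of 0.015. Ms4a8a, which mouse tumour-associated macrophages can express, had the largest difference of the 6. It stood at 4.16 and 3.60 on the CX3CR1bright arrays and at 4.85 and 5.14 on the CX3CR1low arrays, -1.11 ± 0.26 (limma, SE, n = 2 per group, adjusted p = 0.136). Its CX3CR1low levels were above the medians and below the 75th percentiles, and CX3CR1bright replicate 2 was below its median, so that background limits this difference. Ms4a14, the neighbour of Ms4a7, stood at 9.36 and 8.87 on the CX3CR1bright arrays and at 9.41 and 9.38 on the CX3CR1low arrays. The groups did not overlap, but CX3CR1bright replicate 1 lay close to the CX3CR1low arrays, and the difference was -0.28 ± 0.23 (limma, SE, n = 2 per group, adjusted p = 0.576). Ms4a4d and Ms4a15, both near the array medians, differed by 0.56 ± 0.27 and -0.18 ± 0.18. Tmem176b and Tmem176a, whose products are described in dendritic cells, differed by 0.33 ± 0.19 and 0.21 ± 0.23.

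Of 6 tested genes for partners of MS4A proteins, 0 passed (limma, 2 at an unadjusted p under 0.05), with 2 positive, 4 negative and a median of -0.12. Clec7a, the gene of dectin-1, stood at 10.59 and 9.53 on the CX3CR1bright arrays and at 9.23 and 7.37 on the CX3CR1low arrays. Both CX3CR1bright arrays were higher, the opposite direction to Ms4a4a, but each subset's arrays lay more than 1 log2 unit apart, and the difference was 1.76 ± 0.68 (limma, SE, n = 2 per group, adjusted p = 0.261). Syk, the kinase downstream of dectin-1 and Fc receptors, differed by -0.49 ± 0.18. The lipid receptor gene Trem2 and its adaptor gene Tyrobp differed by -0.13 ± 0.34 and -0.11 ± 0.21, and Fcer1g by -0.15 ± 0.20. Tnfrsf18, the GITR gene, whose product is a partner of Ms4a4b in mouse T cells, differed by 0.92 ± 0.37, and was higher on CX3CR1bright replicate 1, at 5.87, than on replicate 2, at 4.81. Vsig4 was at 3.64 and 3.82 on the CX3CR1bright arrays and 3.66 and 3.60 on the CX3CR1low arrays, near or below the medians, and was not tested. Lyn was not analysed here.

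Perivascular macrophages of the LYVE1 type carry the folate receptor Folr2, which differed by -1.15 ± 0.19 (limma, SE, n = 2 per group) beside the -1.23 of Ms4a4a. Of the list of 10 such genes 9 were negative, with a median of -1.04 and a range of -1.51 to 2.09. None passed the threshold (limma, 6 at an unadjusted p under 0.05, of which 5 were lower). The positive gene was Timd4, at 2.09 ± 0.26. Lyve1 itself overlapped between the groups, at 6.80 and 8.18 on the CX3CR1bright arrays and at 8.18 and 8.84 on the CX3CR1low arrays. It differed by -1.02 ± 0.50 (limma, SE, n = 2 per group). The 11 macrophage markers had a median of -0.34 with 8 negative, 3 positive and 0 past the threshold (limma, 2 at an unadjusted p under 0.05). Every gene of both lists lay above the 75th percentile on all 4 arrays. Of all tested genes at such levels 64.5% were lower in CX3CR1bright cells, with a median difference of -0.12.

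Likeness of profile was measured as the root mean square difference over the 4 arrays between log2 levels centred on each gene's own mean, and 2 nearest genes were taken for each tested member. Those of Ms4a4a were Dnmbp (0.046) and Cd200r1 (0.049), the inhibitory receptor for CD200. Cd200r1 stood at 6.27 and 6.18 on the CX3CR1bright arrays and at 7.46 and 7.49 on the CX3CR1low arrays. Those of Ms4a6b were Slc38a7 (0.021) and Abcb8 (0.024), of Ms4a6d P2rx4 (0.027) and Rell1 (0.027), of Ms4a6c Rabac1 (0.014) and H13 (0.015), and of Ms4a7 Rnf170 (0.0097) and Micos13 (0.012). Those of Ms4a4c were Mgll (0.044) and Siglecg (0.069), both also high on CX3CR1bright replicate 1, at 6.33 and 5.48. The nearest to Ms4a2 were Tal1 (0.034) and Dennd1b (0.040). Among the 7 tested members the most alike pair was Ms4a6c and Ms4a7 (0.078), and the least alike was Ms4a4a and Ms4a4c (1.24). Further family genes, such as Ms4a14, were not compared in this way. With 4 arrays and 13133 genes, near matches exist for any profile, and these are a description.

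**Figure D5:**
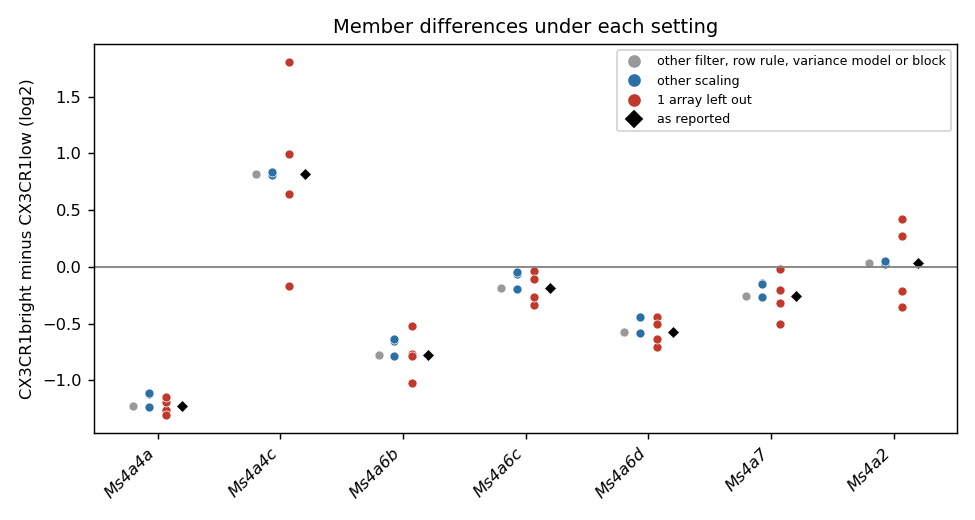
Difference of each tested member (x axis), CX3CR1bright minus CX3CR1low on the log2 scale (y axis), as reported (black diamonds) and under other filters, row rules, variance models or the replicate block (grey), other scalings (blue) and with 1 array left out (red). Ms4a4a stays between -1.31 and -1.11, while Ms4a4c runs from -0.17 to 1.81 and Ms4a2 from -0.35 to 0.42 with 1 array left out.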

How the data were processed

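The deposited values are log2 levels that the authors computed by RMA; the submitters' processing notes name Affymetrix Expression Console 1.4. The genome build behind them is not given in the sources used here. Per the labels' protocols, RNA from few cells was extracted on micro columns and amplified for labelling with WT Pico reagents. All 4 array columns were used. Of 34390 rows, 23521 carried 1 gene symbol, 1814 several and 9055 none; single-symbol rows were used, and per gene the row with the highest mean. All 8 members matched the RefSeq table of GRCm38.p6 by Entrez identifier, with the same symbol.

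Groups were taken from the sample titles. Genes with at least 2 of 4 arrays above the array median were fitted with limma 3.58.1 under R 4.3.3 (lmFit, then eBayes, two-sided, no block, 2 residual and 3.28 prior degrees of freedom), with Benjamini-Hochberg adjustment over all 13133 and a threshold of 0.05. The number of arrays, 2 per group, limits the precision, and the spread behind each p-value is that between pooled samples, not single mice. An exact permutation test of 2 against 2 arrays cannot reach the threshold and was not used. Tested on simulated data in 10 simulations of 13133 genes for CX3CR1bright minus CX3CR1low, the fit called 0.896% of genes given a log2 difference of 1, 69.4% of those given 2, 92.7% of those given 3 and 0.0518% of unchanged genes. Few genes were changed and all upward, in total 670 by 1, 670 by 2 and 660 by 3, against 129330 unchanged. The rates called depend on that share, so they may not carry over to these data. Alternatives were other filters, row rules, scalings, variance models, the replicate number as a block and each array left out.

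The members are the 8 listed genes. Also named are Cx3cr1, every tested further family or partner gene, the 3 tested mast cell, T cell and interferon-induced genes with the smallest p, genes that define a list, and the 2 nearest genes of each tested member, predicted genes left out. Fcer1a, Ms4a1 and Vsig4, which were not tested, and Ccr2, Mrgprb2 and Timd4 were named after their values were seen. Members and lists were chosen with earlier results of these data known. Promoter runs and motifs were found with Python 3.11.15 and aligned with Biopython 1.88.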

Additional observations from a re-analysis of the deposited data

How the results depend on the processing

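The count of all tested genes past the threshold was 18 as reported. It was 1 with no filter, with all single-symbol rows tested, after quantile normalization and with a robust prior, 464 with the stricter filter, 33 after cyclic loess and 308 with an intensity trend. With 1 array left out it ran from 0 to 154; it was 154 without CX3CR1bright replicate 1 and 0 (limma, 1212 to 2180 genes at an unadjusted p under 0.05) without any other array, where the lone array of a subset is assumed to vary like the pair of the other. The labels do not say whether same-numbered replicates share a litter, and with 2 numbers the data do not settle it: their deviations from the group means correlated at 0.155 across genes, and with the replicate block 0 genes passed (limma, 2637 at an unadjusted p under 0.05). The count of members past the threshold, 0 as reported, was 1, Ms4a4a, with the stricter filter and with an intensity trend. It stayed 0 under every other alternative, each array left out included, where the adjusted p of Ms4a4a was 0.0797 to 0.490. Of 96 alternative values of member differences, 91 kept direction and side of the threshold. This count overstates the stability of direction. Each member had 1 row and the groups were balanced, so other filters, row rules, variance models and the block could not alter a difference. Only other scalings and leaving out an array could. The 3 that turned were Ms4a4c at -0.17 without CX3CR1bright replicate 1, and Ms4a2 at -0.35 without CX3CR1bright replicate 2 and at -0.21 without CX3CR1low replicate 1; with 1 array left out Ms4a4c ran from -0.17 to 1.81 and Ms4a2 from -0.35 to 0.42, where the array left out is the only change. Levels near the array median, as those of Ms4a2, Ms4a4b and Ms4a4c, can be background, which limits what their differences show. Why the filter and the variance model moved the counts was not tested.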
